A study of Homo sapiens with 24 samples.

Results

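The subject here is the difference between the human cancer cell lines A549 and Huh7 in their transcriptional response to an extract of Bupleurum chinense (B. chinense), a herb of the liver soothing category of traditional Chinese medicine. Of 24 libraries in the series, 12 were used, 3 each of control A549 cells, A549 cells given B. chinense, control Huh7 cells and Huh7 cells given B. chinense. A549 is an established lung adenocarcinoma line with wild-type p53 and Huh7 is a hepatocellular carcinoma line with mutated p53, as the study describes them, and the labels give the genotype of both as WT. The extract was prepared with aqueous ethanol, freeze-dried and dissolved in DMSO. How much extract the sequenced cells received, for how long, and whether the controls received DMSO are not given in the sources used here. Nothing states that the 3 replicates of a group came from separate cultures, so the p-values below measure the spread between these libraries, which may be technical.

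For each gene, the log2 fold change of treated against control cells in Huh7 was subtracted from that in A549. A positive difference therefore means a higher response in A549 cells, and a negative difference a lower response. Genes were kept where the mean estimated count was above 5 over the 6 libraries of each line, which left 12696 of the 14585 genes in the table. Another 765 genes passed in A549 only and 1088 in Huh7 only, and 36 passed in neither. Levels are given as CPM, the count scaled to a common library size with TMM factors, in the order of replicates 1, 2 and 3. Log2 fold changes and differences are given ± the standard error of the fit, with 3 libraries per group. A difference was called where the Benjamini-Hochberg adjusted p-value of edgeR's two-sided quasi-likelihood test over all 12696 genes was below 0.05.

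In unstressed cells the transcription factor p53 is held at a low level by the ubiquitin ligase MDM2, itself the product of a p53 target gene. Active p53 raises the transcription of genes for cell-cycle arrest, DNA repair and cell death, among them CDKN1A, which encodes the cyclin-dependent kinase inhibitor p21. When cyclin-dependent kinases are inhibited, the pocket proteins and the DREAM complex repress genes of DNA replication through E2F sites and genes of mitosis through the cell cycle genes homology region (CHR) of their promoters. Missense mutants of p53 as found in many tumours bind these targets poorly. The aryl hydrocarbon receptor, ATF4, NRF2 and SREBP2 are further transcription factors through which cells respond to plant compounds, amino acid supply, oxidants and sterols.

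The libraries summed to between 6803704 and 10616955 counts in A549 cells. In Huh7 cells the totals were 9526159 to 11546100 with B. chinense and 16455709 to 24345541 in the controls, so the Huh7 controls were the deepest group. Between replicates, the median gene differed by a chi-square statistic 2.91 to 3.62 times the median that sampling alone gives. No known repeat of a library was available for comparison, so whether any pair was such a repeat was not tested. The first principal component separated the lines and carried 91.5% of the variance, and the second separated treated from control A549 cells and carried 3.49%. The summed marker lists followed the labels. The A549 list summed to 15500 to 15600 CPM in A549 controls and 404 to 417 CPM in Huh7 controls. Its member TFF1 went the other way at a low level. TFF1 had means of 0.321 and 0.379 CPM in the A549 groups and 2.74 and 2.43 CPM in the Huh7 groups. ALB, APOB and AFP, which mark hepatocytes, had at most 5 counts in any A549 library and means of 2140 to 11300 CPM in the Huh7 groups, while the epithelial keratin KRT7 was at 0 in every Huh7 library and at means of 1720 and 1730 CPM in the A549 groups.

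B. chinense changed more genes in A549 than in Huh7 cells. Against their own controls, 1762 genes rose and 2072 fell in A549 (30.2% of the genes tested), and 275 rose and 488 fell in Huh7 (6.01%). The response itself differed between the lines for 2358 genes (18.6%), of which 1129 were higher (8.89%) and 1229 lower (9.68%) in A549. Among these 2358 genes the median absolute difference was 0.56, and 409 genes differed by more than 1. Over all genes tested the median difference was 0.00079, so the distribution of differences was centred near 0.

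Most of the called differences lay in genes that passed the threshold in A549 and not in Huh7. Of the 1229 genes with a lower response, 988 (80.4%) fell in A549 without a call in Huh7, 73 fell in both lines and further in A549, and 57 rose in Huh7 without a call in A549. Of the 1129 genes with a higher response, 807 (71.5%) rose in A549 without a call in Huh7, 117 fell in Huh7 without a call in A549, and 18 rose in both lines. In 107 genes (0.843%) both lines were called in opposite directions, 76 of them with a rise in A549 and a fall in Huh7, and 31 with the reverse. There were also 130 genes that fell and 83 that rose in both lines with no call for a difference. Across the 12696 genes, which are not independent replicates, the fold changes of the lines had a Pearson r of 0.158 and a Spearman rho of 0.156, and r was 0.191 over the 9819 genes with at least 50 counts in each line.

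**Figure D1:**
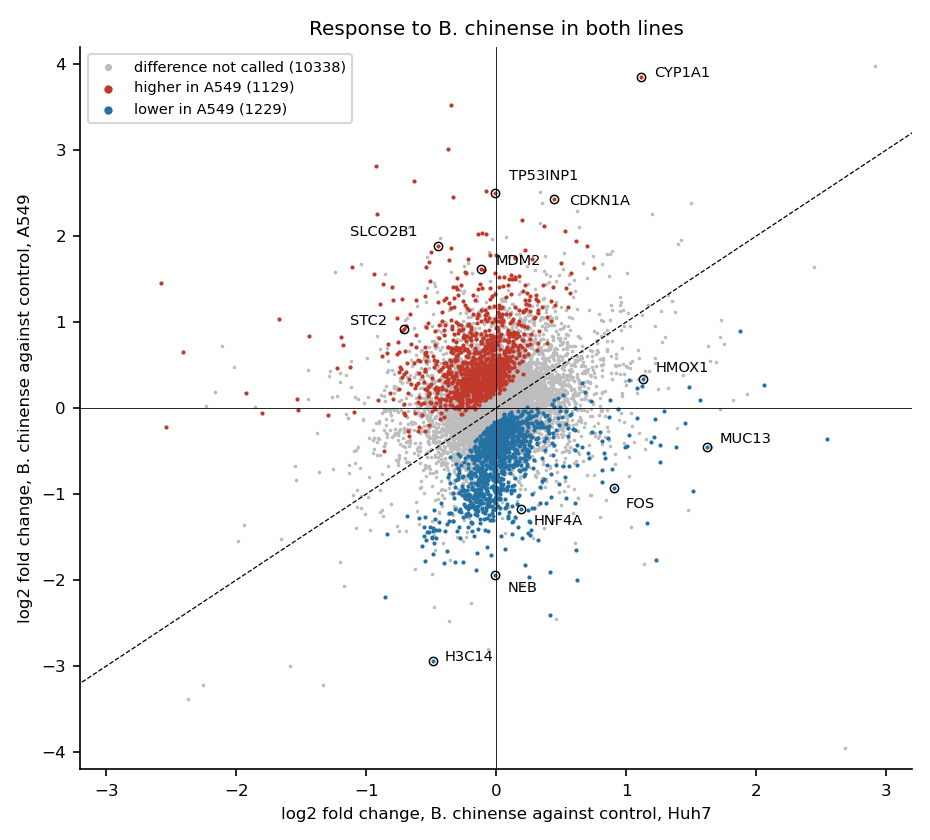
Log2 fold change of B. chinense against control in Huh7 (horizontal) and A549 (vertical) for the genes tested, each point a gene, with 1 gene outside the axes. Red points (1129) had a called higher and blue points (1229) a called lower response in A549, grey points were not called, and the dashed line marks equal responses. The coloured clouds stretch along the vertical axis where most called genes moved in A549 and lay near 0 in Huh7.

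Genes known as direct targets of p53 formed the group with the most called higher responses. Of 66 targets in the list 59 were tested, and 39 had a higher and 1 a lower response in A549, against a background of 8.89% and 9.68%. Within A549, 46 of the 59 rose and 1 fell (background 13.9% and 16.3%), and within Huh7 6 rose and 1 fell (background 2.17% and 3.84%). These shares of all genes are the background of every list count that follows. The median log2 fold change of the list was 0.80 in A549 and 0.05 in Huh7, beside 0.0064 and -0.011 for all genes. CDKN1A (chr6:36676460-36687337, GRCh38) was at 70.5, 78 and 96 CPM in A549 controls and at 438, 446 and 440 CPM after treatment. In Huh7 CDKN1A was at 15.3, 10.8 and 12.9 CPM in the controls and 18.4, 17.8 and 17.5 CPM with the extract. All treated A549 libraries lay above every control, and the Huh7 groups, at a far lower level, did not overlap either. Groups did not overlap in 40.8% of all genes tested in A549 and in 29.5% in Huh7. These shares are the background wherever the groups of a gene are said below not to overlap. The log2 fold change was 2.43 ± 0.098 in A549 (adjusted p 1.63e-09) and 0.45 ± 0.13 in Huh7 (adjusted p 0.0663, not called), with a difference of 1.98 ± 0.16 (adjusted p 2.55e-06).

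MDM2 (chr12:68808177-68845544) was at a like level in the controls of both lines. It was at 283, 289 and 282 CPM in A549 controls and 952, 864 and 806 CPM with B. chinense, and at 316, 311 and 308 and then 285, 284 and 295 CPM in Huh7. The A549 groups were far apart, whereas the Huh7 groups lay close together, with the treated libraries slightly the lower and no call. The difference between the lines was 1.73 ± 0.071 (adjusted p 1.54e-08). TP53INP1, which encodes a p53-inducible nuclear protein that promotes cell death and autophagy, showed the largest higher response once genes under a mean of 50 counts in either line were left aside. Its CPM rose from 12.4, 10.2 and 11.4 to 65.7, 67.5 and 60.6 in A549 and went from 28.8, 25.6 and 31.1 to 26.2, 29.2 and 29.4 in Huh7, where the groups overlapped. The difference was 2.52 ± 0.15 (adjusted p 2.30e-07). Exons of MDM2 and TP53INP1 overlap those of the carboxypeptidase M gene and NDUFAF6 on the other strand, and whether the counting used strand is not stated.

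Targets with other roles behaved in the same way. SESN1, a sestrin that restrains mTORC1, went from 12.2, 10.5 and 13 to 37.5, 33.5 and 30.5 CPM in A549 and from 12.9, 12.2 and 11 to 11.9, 14.3 and 12.4 CPM in Huh7, a difference of 1.40 ± 0.18 (adjusted p 1.36e-04). Among DNA repair genes, the differences were 1.47 for DDB2, 0.74 for XPC, 0.69 for POLH and 1.17 for RRM2B, the p53-inducible subunit of ribonucleotide reductase. The antiproliferative factor BTG2 rose in both lines, by 2.06 ± 0.099 in A549 and 0.53 ± 0.098 in Huh7, and the stress cytokine GDF15 by 1.57 ± 0.085 and 0.58 ± 0.082. Both rises were larger in A549, with differences of 1.54 and 0.996 (adjusted p 5.13e-06 and 5.22e-05). The targets that rose in Huh7 were BTG2, GDF15, FUCA1, PLK2, SERTAD1 and TP53I11, and DRAM1 fell there. PLK2, a polo-like kinase, rose by 0.84 in A549 and 0.81 in Huh7, and SERTAD1 by 0.95 and 1.03, and neither was called as different. The only target with a called lower response was PTP4A1, a phosphatase, whose log2 fold change was -0.48 in A549 and 0.021 in Huh7.

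Of 43 tested genes of the apoptosis machinery, 9 had a higher and 3 a lower response in A549, a share of 27.9% beside the 18.6% of all genes. The higher group held BBC3, which encodes the BH3-only protein PUMA, the pore former BAX, and the death receptors FAS, TNFRSF10A and TNFRSF10B. BBC3 went from 4.81, 4.26 and 2.69 to 16.1, 17.7 and 18.5 CPM in A549 and from 1.28, 3.01 and 3.15 to 3.69, 2.73 and 3.35 CPM in Huh7, a difference of 1.75 ± 0.43 (adjusted p 0.0117). TNFRSF10B, the TRAIL receptor DR5, went from 209, 241 and 224 to 478, 499 and 428 CPM and from 169, 160 and 156 to 164, 156 and 172 CPM, a difference of 1.04 ± 0.090 (adjusted p 3.72e-06). Genes that oppose death were in the same group, BCL2L1 at 0.50 in A549 and -0.032 in Huh7 and the caspase-8 inhibitor CFLAR at 0.38 and 0.026. BCL2L11, CASP2 and CYCS had a lower response, at -0.77, -0.37 and -0.40. Several of the higher genes, FAS, BAX, BBC3, TNFRSF10A and TNFRSF10B among them, are also in the list of p53 targets.

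**Figure D2:**
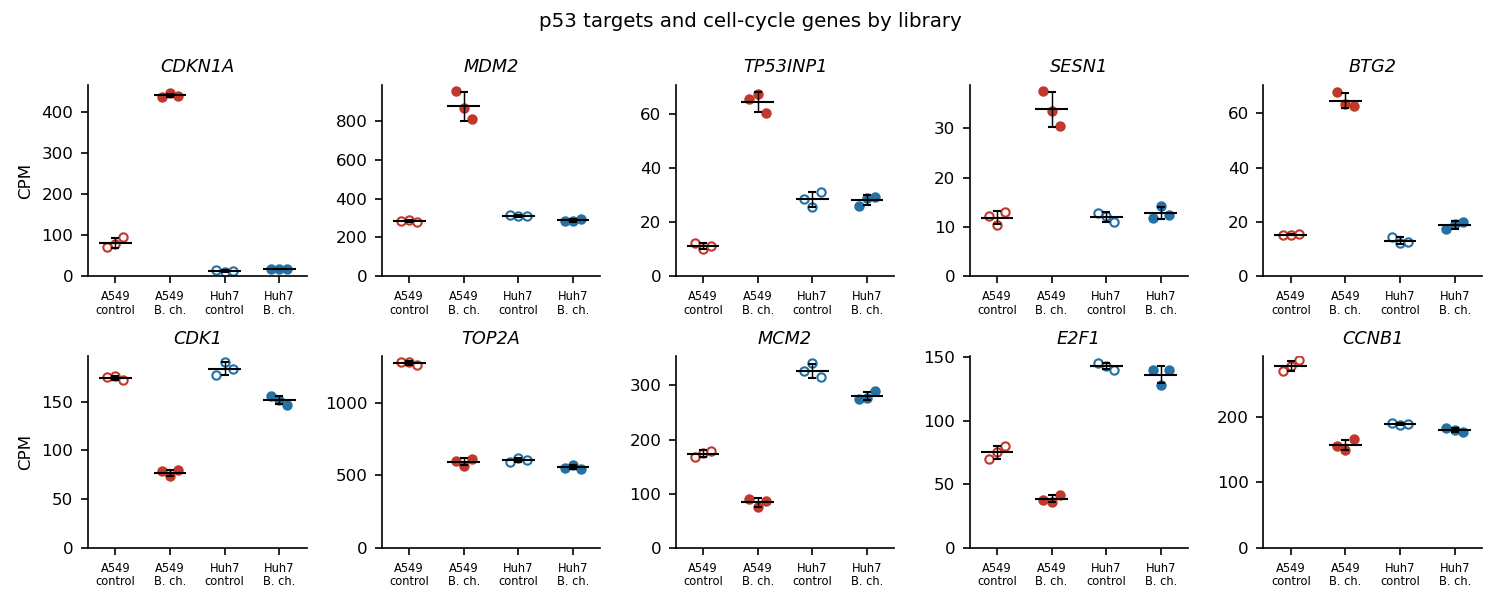
CPM by library for 5 genes of the p53 pathway (top) and 5 cell-cycle genes (bottom) in the 4 groups, red for A549, blue for Huh7, open for control and filled for B. chinense, with the mean (line) and SD (bar) of 3 libraries. In A549, CDKN1A, MDM2, TP53INP1, SESN1 and BTG2 rose and CDK1, TOP2A, MCM2, E2F1 and CCNB1 fell without overlap, whereas the Huh7 levels moved little by comparison. Groups did not overlap in 40.8% of all genes tested in A549.

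The genes of mitosis fell in A549, and most were not called in Huh7. All 54 genes of the G2/M list were tested, 51 had a lower response in A549 and none a higher one, against the 9.68% and 8.89% of the background. Within A549 52 of them fell, with a median of -0.95, and within Huh7 6 fell, with a median of -0.06. TOP2A (chr17:40388525-40417896), the topoisomerase that untangles sister chromatids, was at 1280, 1280 and 1260 CPM in A549 controls and 599, 566 and 615 CPM with B. chinense, and at 594, 617 and 608 and 553, 569 and 543 CPM in Huh7. The groups did not overlap in either line, and the log2 fold change was -1.10 ± 0.036 in A549 and -0.13 ± 0.036 in Huh7 (not called), a difference of -0.97 ± 0.051 (adjusted p 1.07e-07). CDK1 (chr10:60778331-60794852), the kinase that drives entry into mitosis, fell in both lines, from 175, 176 and 172 to 78.4, 73.8 and 79.5 CPM in A549 and from 177, 191 and 184 to 156, 152 and 147 CPM in Huh7, and by more in A549 (difference -0.90 ± 0.065, adjusted p 9.85e-07). For its partner cyclin B1, CCNB1, the fold change was -0.82 ± 0.044 in A549 and -0.073 ± 0.042 in Huh7. The 6 genes that fell in Huh7 were AURKB, CBX5, CDK1, CKS1B, HMGB2 and UBE2C. RNA was measured from whole cultures, in which fewer cells in a phase and less RNA per cell cannot be told apart.

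The largest differences of the list were in TACC3 and HMMR, both of the mitotic spindle, at -1.44 ± 0.27 (adjusted p 0.00172) and -1.32 ± 0.090 (adjusted p 6.60e-07). Exons of TACC3 overlap TMEM129 on the other strand. HMMR went from 132, 131 and 120 to 57.9, 52 and 54.8 CPM in A549, and in Huh7 it was at 48.2, 51.6 and 50.6 CPM in the controls and at 56.1, 52.6 and 52.7 CPM with the extract, so the treated Huh7 libraries were the higher, without a call. The proliferation marker MKI67 went from 879, 863 and 845 to 381, 382 and 460 CPM in A549 and from 852, 794 and 803 to 729, 734 and 669 CPM in Huh7, a difference of -0.88 ± 0.089 (adjusted p 1.36e-05). Only CTCF, GAS2L3 and RANGAP1 of the 54 had no called difference.

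Promoter sequences of these genes are shown because the members moved together and their promoters share motifs, which the choice of genes by function did not use. A RefSeq window of 300 bases, 250 before and 50 after the start (GRCh38.p14), matched 10397 of the 12696 genes. The CHR was searched as TTTGAA or TTCGAA and the CCAAT box as CCAAT, both on either strand. A CHR was present in 33 of 45 G2/M promoters (73.3%), against 20.8% of genes with a lower response, 8.82% of those with a higher response and 11.5% of all windows. A CHR together with a CCAAT box was in 27 of the 45 (60.0%), against 4.91% of all. The 130 bases before the start are given for 4 of these genes, chosen for their matches, with each CHR or CCAAT match in capitals, 5′ to 3′ on the strand of the gene.
CCNB2, chr15:59105016-59105145, plus strand: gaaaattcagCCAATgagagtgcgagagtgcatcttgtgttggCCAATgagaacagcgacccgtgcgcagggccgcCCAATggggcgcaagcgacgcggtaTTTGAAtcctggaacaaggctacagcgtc
HMMR, chr5:163460502-163460631, plus strand: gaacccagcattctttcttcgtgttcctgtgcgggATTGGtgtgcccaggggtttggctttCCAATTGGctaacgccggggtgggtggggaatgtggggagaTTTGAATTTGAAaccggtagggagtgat
MKI67, chr10:128126424-128126553, minus strand: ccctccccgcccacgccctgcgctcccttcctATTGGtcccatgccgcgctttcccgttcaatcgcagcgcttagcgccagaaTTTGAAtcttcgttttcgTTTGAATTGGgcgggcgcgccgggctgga
CENPA, chr2:26785926-26786055, plus strand: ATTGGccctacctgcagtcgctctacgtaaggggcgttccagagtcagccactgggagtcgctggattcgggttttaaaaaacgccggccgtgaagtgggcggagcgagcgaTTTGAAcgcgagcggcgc
The first base of a CHR was 29 bases before the start in CCNB2, 28 and 22 in HMMR, 47 and 29 in MKI67 and 18 in CENPA. The later CHR of MKI67 shares its last base with a CCAAT match, and 2 CCAAT matches of HMMR, on opposite strands, overlap by a pair of bases. A match describes letters in the window and is not evidence that a factor was bound.

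DNA replication genes showed the same contrast. Of 43 tested S phase genes 38 had a lower response in A549 and none a higher one. Within A549 41 fell with a median of -0.88, and within Huh7 5 fell with a median of -0.13. MCM2, a subunit of the replicative helicase, went from 167, 176 and 179 to 89.9, 74.7 and 87 CPM in A549 and from 326, 341 and 315 to 275, 277 and 289 CPM in Huh7. It fell in both lines, and the difference was -0.83 ± 0.084 (adjusted p 1.35e-05). PCNA, the sliding clamp, fell in both lines, with log2 fold changes of -0.38 ± 0.046 and -0.17 ± 0.045, and its difference of -0.22 ± 0.064 was near the threshold (adjusted p 0.0322). With a correction for GC content and length it was -0.12 and not called.

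Not every replication gene followed. TYMS, thymidylate synthase, fell by 0.36 in A549 and had a log2 fold change of -0.15 in Huh7 (not called), with no called difference (adjusted p 0.104). RRM2, a subunit of ribonucleotide reductase, spread widely between libraries, at 171, 86 and 126 CPM in A549 controls and 64.4, 75.9 and 168 CPM with the extract, and was called in neither line. Of 31 genes of homologous recombination and the Fanconi pathway 18 had a lower response, with a median of -0.93 in A549 and -0.10 in Huh7, and none was called in Huh7. FANCD2 went from 133, 125 and 132 to 40.6, 51.7 and 55.4 CPM in A549 and from 229, 233 and 224 to 217, 201 and 204 CPM in Huh7 (difference -1.26 ± 0.11, adjusted p 3.28e-06). Of 33 nucleotide synthesis genes 11 had a lower response, RRM1 among them at -0.996 ± 0.079, and 3 a higher one.

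The regulators of these genes were mixed. Of 35 genes of the E2F, DREAM and G1/S list, 19 had a lower and 2 a higher response, the 2 being CDKN1A and the cyclin D1 gene CCND1. E2F1, an activator of replication genes, was at 70, 75.2 and 79.7 CPM in A549 controls and 37.5, 36.4 and 41.7 CPM with B. chinense, and at 145, 143 and 140 and 140, 128 and 140 CPM in Huh7. The A549 groups were far apart and the Huh7 groups met at the same rounded value, and the difference was -0.90 ± 0.091 (adjusted p 1.42e-05). Its dimer partner TFDP1 fell by 0.46 in A549 and had a log2 fold change of -0.11 in Huh7 (difference -0.35 ± 0.079, adjusted p 0.00725). MYBL2 and FOXM1, which activate mitotic genes late in the cycle, had differences of -1.01 ± 0.088 and -0.81 ± 0.097. The repressor E2F7 moved in opposite directions, with log2 fold changes of -0.43 ± 0.10 in A549 and 0.62 ± 0.11 in Huh7. CDKN1B, which encodes the inhibitor p27, fell by 0.66 in A549 and had a log2 fold change of 0.026 in Huh7.

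An E2F site, searched as TTTGGCGC or TTTCGCGC on either strand, was in 9 of 32 S phase promoters (28.1%) and 12 of 47 histone promoters (25.5%), against 2 of 45 G2/M promoters (4.44%) and 2.13% of all windows. The promoter of E2F1 itself holds such a site, whose first base lies 20 bases before the start. It is printed with the E2F site and the CCAAT boxes in capitals.
E2F1, chr20:33686386-33686515, minus strand: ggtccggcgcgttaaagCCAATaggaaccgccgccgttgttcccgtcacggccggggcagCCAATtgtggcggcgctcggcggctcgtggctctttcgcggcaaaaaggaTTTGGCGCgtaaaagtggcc

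Replication-dependent histone genes, transcribed in S phase, fell in both lines and further in A549. Of 52 tested genes 50 fell in A549 and 33 in Huh7, with medians of -1.36 and -0.45, and 45 had a lower response in A549 (median difference -0.94). The 59 histone genes of the table took 0.765% to 0.796% of the counts in A549 controls and 0.293% to 0.365% with B. chinense. In Huh7 the share was 0.884% to 0.925% in the controls and 0.682% to 0.753% with the extract, so the groups did not overlap in either line. The linker histone gene H1-3 went from 297, 286 and 275 to 81.7, 74.6 and 91.5 CPM in A549 and from 26.8, 31.1 and 29.6 to 24.4, 24 and 24.5 CPM in Huh7, a difference of -1.54 ± 0.11 (adjusted p 8.57e-07). H3C14 had the largest called difference of the list, -2.45 ± 0.66, but it was at 10.1, 20.2 and 0 CPM in the treated A549 libraries, and DESeq2 gave an adjusted p of 0.261. Histone genes have near-identical copies between which estimated counts can be split, and the values of single copies are uncertain.

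**Figure D3:**
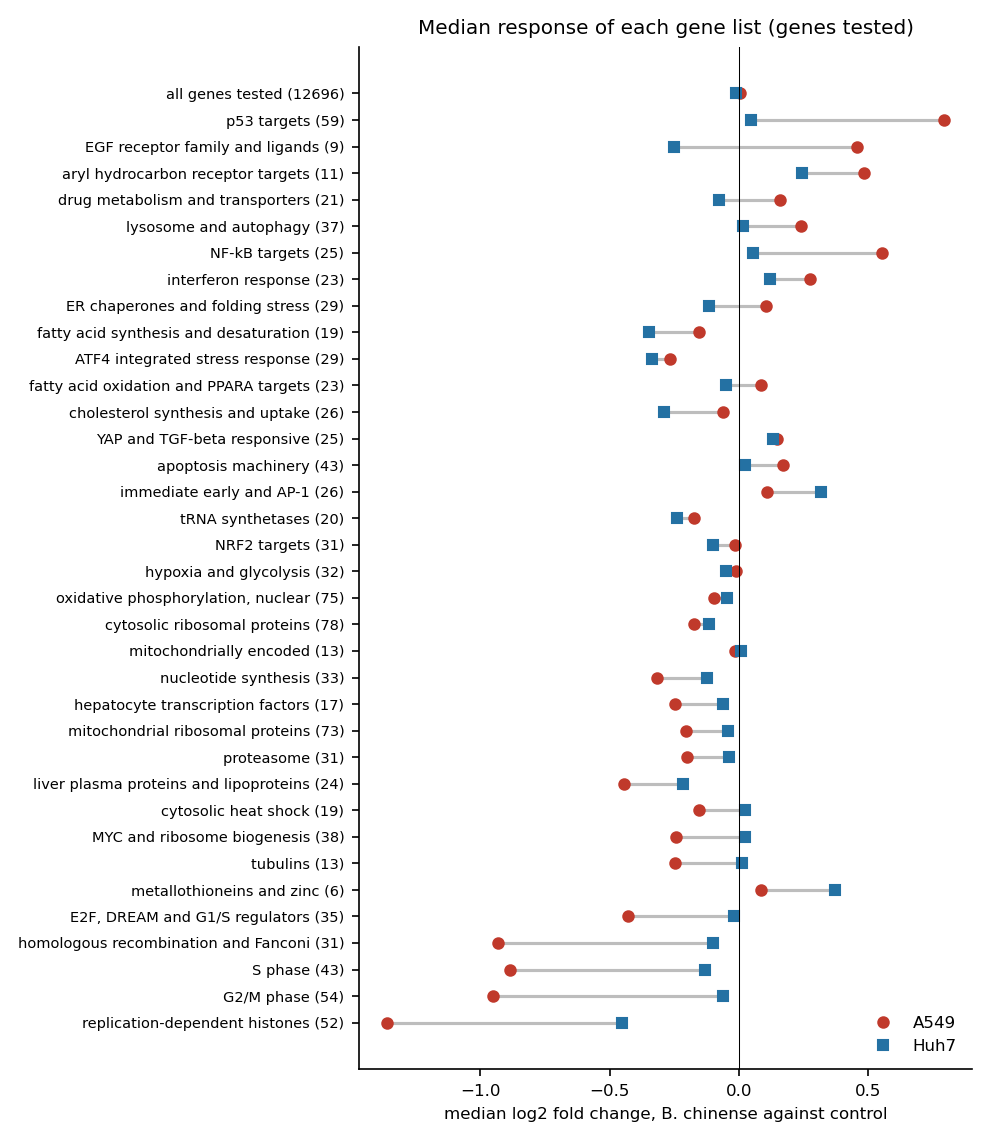
Median log2 fold change of B. chinense against control for the tested members of each of 35 gene lists and for all genes tested, as red circles for A549 and blue squares for Huh7, with the number of genes in parentheses. Histones, G2/M, S phase and Fanconi genes lie far to the left in A549 and near 0 in Huh7, except for the histones at -0.45, and p53 targets lie to the right in A549.

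Genes of ribosome biogenesis and protein folding or turnover moved less. Of 38 genes of MYC and ribosome biogenesis, 18 had a lower and 1 a higher response in A549, with medians of -0.24 in A549 and 0.02 in Huh7. MRTO4, a ribosome assembly factor, went from 83.5, 90.2 and 96.7 to 54.6, 63.8 and 55.4 CPM in A549 and from 78.9, 76.3 and 75.4 to 89.4, 82.3 and 84.5 CPM in Huh7 (difference -0.79 ± 0.10, adjusted p 1.01e-04). Proteasome subunits had 7 lower and 0 higher responses among 31 genes. Cytosolic ribosomal protein genes were called in 2 of 78 and nuclear genes of oxidative phosphorylation in 4 of 75, shares of 2.56% and 5.33% beside the background of 18.6%. The chaperones STIP1 and HSP90AA1 fell in A549, with log2 fold changes of -0.45 and -0.37, beside 0.042 and -0.013 in Huh7. Among 13 tubulins, TUBA1B fell in both lines (-0.71 in A549 and -0.13 in Huh7), and TUBA1A rose in both, by 0.90 and 1.88, the rise being the smaller in A549 (difference -0.98 ± 0.22, adjusted p 0.00666). Some tubulin genes are near-identical copies, and TUBA1A overlaps TUBA1C on the other strand, so how counts were split between such genes is uncertain.

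Hepatocyte genes were measured in A549 at low levels, and their lists fell more often than they rose in both lines. Of 17 tested hepatocyte transcription factors 1 rose and 4 fell in A549 and 1 rose and 4 fell in Huh7. Of 24 tested liver plasma proteins (55 listed) 3 rose and 9 fell in A549 and 2 rose and 9 fell in Huh7, with medians of -0.44 and -0.22. HNF4A, FGA and FGB, described below for their difference between the lines, rose in Huh7 and so went against most called members there. HNF4A (chr20:44355699-44432845), a nuclear receptor that directs the hepatocyte programme, was at 118, 114 and 128 CPM in A549 controls and 53.8, 50.3 and 55.9 CPM with B. chinense, and at 465, 446 and 460 and 550, 506 and 510 CPM in Huh7. It fell in A549 (log2 fold change -1.17) and rose in Huh7 (0.19), a difference of -1.36 ± 0.076 (adjusted p 1.78e-07). Of the 17 factors 3 had a lower response, HNF4A and NR2F2 among them, and 1 a higher one, NR5A2, at 0.88 ± 0.098.

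The 3 fibrinogen chains, which lie side by side on chromosome 4 (FGB at chr4:154563011-154572807, FGA at chr4:154583126-154590742 and FGG at chr4:154604134-154612967) and form the clotting protein, fell in A549. FGA went from 18.1, 17.5 and 18.6 to 8.86, 7.52 and 8.55 CPM in A549 and from 567, 599 and 558 to 729, 721 and 727 CPM in Huh7. FGB went from 5.34, 5.89 and 8.16 to 2.53, 0.786 and 1.53 CPM in A549 and from 195, 199 and 183 to 257, 267 and 247 CPM in Huh7. Treated libraries were below the controls in A549 and above them in Huh7 for both genes, and the differences were -1.44 ± 0.089 (adjusted p 3.06e-07) and -2.33 ± 0.27 (adjusted p 5.22e-05). FGG fell in A549 from 5.47, 3.25 and 1.69 to 0.23, 1.01 and 2.6 CPM, with overlapping groups, and was not called in Huh7. Its difference of -1.55 ± 0.49 was near the threshold (adjusted p 0.0411) and not called with DESeq2 (adjusted p 0.12). These genes were named after their values were seen, as the members of the list of liver plasma proteins with a called lower response. In that list 5 of the 24 genes had a higher and 3 a lower response, 33.3% beside the 18.6% of all genes. Complement C3, among those with a higher response, rose in A549 (0.55) and fell in Huh7 (-0.46). The Huh7 marker list summed to 146 to 166 CPM in A549 controls and 65.1 to 72.7 CPM in treated A549 cells. In Huh7 the sum was also lower with the extract, at 22900 to 23500 CPM in controls and 20600 to 21300 CPM in treated cells. ALB, APOB and AFP were at or near 0 in A549 throughout.

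Among the 107 genes called in opposite directions, those with the largest changes in both lines by the naming rule were 4 of each orientation. STC2, LAMTOR4, DRAM1 and IFI35 rose in A549 and fell in Huh7. STC2, a secreted glycoprotein induced by stress, went from 53.7, 59.9 and 65.2 to 93.9, 116 and 130 CPM in A549 and from 69.7, 79.6 and 74.6 to 49.6, 41.9 and 45.5 CPM in Huh7, a difference of 1.63 ± 0.15 (adjusted p 7.77e-06). DRAM1, a lysosomal membrane protein of p53-driven autophagy, went from 46.1, 42 and 39.2 to 77.5, 71.9 and 62.8 CPM in A549 and from 134, 133 and 146 to 91.5, 82.1 and 89 CPM in Huh7 (difference 1.40 ± 0.12, adjusted p 2.37e-06). DRAM1 was the higher in the Huh7 controls, and the levels of the lines lay closer together after treatment. LAMTOR4, of the lysosomal Ragulator complex, and IFI35, an interferon-induced protein, had differences of 1.65 ± 0.24 and 1.39 ± 0.25. Exons of LAMTOR4 overlap TRAPPC14 on the other strand.

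FOS, RND1, AKAP12 and SUSD2 fell in A549 and rose in Huh7. FOS (chr14:75278826-75282230), an AP-1 subunit, went from 13.3, 11.1 and 13.7 to 6.44, 6.51 and 6.87 CPM in A549 and from 5.02, 3.77 and 3.92 to 8.34, 7.9 and 7.98 CPM in Huh7, a difference of -1.83 ± 0.24 (adjusted p 1.29e-04). AKAP12, a scaffold for protein kinase A, went from 237, 259 and 260 to 160, 156 and 163 CPM in A549 and from 35.1, 38.5 and 37.2 to 54.8, 57.8 and 58.4 CPM in Huh7, with tight replicates in all groups (difference -1.28 ± 0.076, adjusted p 2.35e-07). RND1, a small GTPase, and SUSD2, a membrane protein, had differences of -1.54 ± 0.24 and -1.42 ± 0.18. The transmembrane mucin MUC13 (chr3:124905442-124953819) had the larger difference of -2.08 ± 0.18 (adjusted p 3.11e-06), with 24.9, 23.1 and 23.5 and then 19.4, 15.5 and 16.9 CPM in A549 and 4.2, 4.4 and 4.13 and then 13.8, 12.4 and 14 CPM in Huh7.

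**Figure D4:**
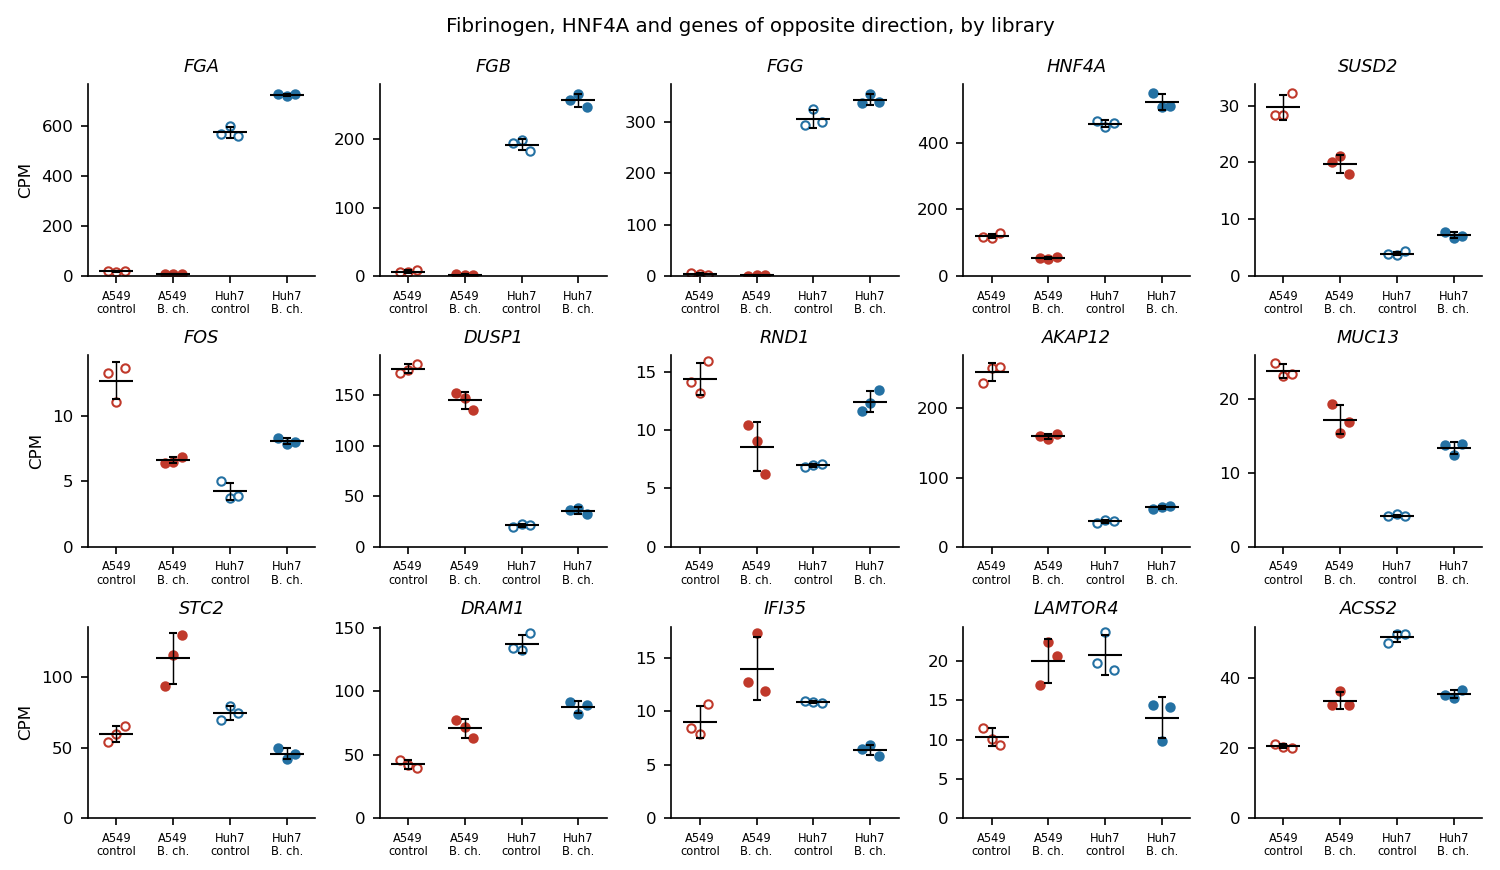
CPM by library for 15 genes in the 4 groups, red for A549, blue for Huh7, open for control and filled for B. chinense, with the mean (line) and SD (bar) of 3 libraries. FOS, DUSP1, RND1, AKAP12, MUC13, SUSD2, FGA, FGB and HNF4A fell in A549 and rose in Huh7, STC2, DRAM1, IFI35, LAMTOR4 and ACSS2 rose in A549 and fell in Huh7, and FGG is shown beside the other fibrinogen chains.

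Immediate early genes split by member and by line. Of 26 tested genes 9 had a higher and 6 a lower response in A549, and within the lines 10 rose and 6 fell in A549 and 9 rose and 2 fell in Huh7. EGR1, a zinc finger factor induced by growth signals, rose in both lines, by 1.34 from a low level in A549 and by 0.57 in Huh7 (difference 0.77 ± 0.19, adjusted p 0.0128). EGR1 had 11 to 18 counts in the A549 controls, and its call was lost in 5 alternatives. At equal depth by thinning the difference of EGR1 was 0.56, with an adjusted p of 0.124, and without A549 control replicate 2 the adjusted p was 0.0646. The adjusted p was 0.072 with voom, 0.13 with the P. chinensis libraries added to the fit and 0.22 with all 24 libraries. ATF3, JUN and FOSL1 rose in A549 by 1.94, 0.86 and 1.06 and were not called in Huh7. DUSP6, a phosphatase that switches off ERK and is induced by it, rose by 1.25 in A549 and fell by 0.26 in Huh7, a difference of 1.51 ± 0.12 (adjusted p 1.43e-06). DUSP1, a phosphatase of JNK and p38, did the reverse, with log2 fold changes of -0.28 in A549 and 0.74 in Huh7. The nuclear receptor NR4A1 fell from 50.4, 48.5 and 53.1 to 18.3, 11 and 11.3 CPM in A549 and was at 18.7, 18.5 and 19.3 and 15.8, 15.1 and 19.6 CPM in Huh7 (difference -1.73 ± 0.23, adjusted p 1.29e-04). NR4A3 rose in Huh7 (1.52), with -0.97 in A549 (not called), from levels of a few CPM in both lines.

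Of 25 tested NF-kB targets 12 rose and none fell in A549, and 2 rose and 1 fell in Huh7, beside 13.9% and 16.3% of all genes in A549 and 2.17% and 3.84% in Huh7. A higher response was called in 7 and a lower one in 1, beside 8.89% and 9.68%. NFKB2, a subunit of the noncanonical pathway, went from 63.9, 72.3 and 79.9 to 160, 144 and 161 CPM in A549 and from 29.8, 39.1 and 27 to 31.9, 32.6 and 32.3 CPM in Huh7, where the groups overlapped (difference 1.08 ± 0.17, adjusted p 4.25e-04). Its partner RELB had a difference of 1.31 ± 0.23, and the chemokine CXCL8 one of 1.47 ± 0.39 (adjusted p 0.0181), the latter from 0.39, 2.13 and 0.895 to 4.03, 4.16 and 2.9 CPM in A549. Without A549 control replicate 3 the difference of CXCL8 was 1.32, with an adjusted p of 0.0537. BIRC3 and TNFAIP3 rose in both lines, by 0.95 and 0.91 in A549 and by 0.98 and 0.96 in Huh7. Of 9 genes of the EGF receptor family and its ligands 5 had a higher response (EGF, EGFR, ERBB2, EREG and NRG1) and 2 a lower one. The neuregulin NRG1 rose by 0.67 in A549, with a log2 fold change of -0.35 in Huh7 (not called), and its receptor ERBB3 fell in both lines (-1.39 and -0.29).

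Interferon-induced genes had called differences in both directions, 4 higher and 3 lower among 23 (30.4% beside 18.6% of all genes). Within A549 7 rose and 3 fell, and within Huh7 1 rose and 1 fell. The antiviral synthetase OAS1 fell from 58, 54.4 and 59 to 25, 22.8 and 28.6 CPM in A549 and was at 6.35, 5.84 and 5.67 and 6.86, 6.09 and 8.92 CPM in Huh7 (difference -1.46 ± 0.19, adjusted p 1.29e-04), while OAS3 fell in A549 (-0.77) and rose in Huh7 (0.42). The higher members included B2M and IFI35. SAMD9 was also called, but lost its call in 16 alternatives, 10 of them omissions of a single library, with adjusted p up to 0.139.

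Of 11 tested targets of the aryl hydrocarbon receptor 6 rose and 1 fell in A549 and 3 rose and 1 fell in Huh7, and 3 had a higher and none a lower response in A549. The share with a called difference was 27.3%, beside 18.6% of all genes, so with 11 genes it was not far from the background. CYP1A1 (chr15:74719542-74725536), the cytochrome P450 that is the best known target, was at 0.26, 0.508 and 0.199 CPM in A549 controls and 3.68, 6.4 and 11.9 CPM with B. chinense, and at 138, 130 and 139 and 288, 288 and 309 CPM in Huh7. The groups did not overlap in either line. The rise was 3.85 ± 0.47 in A549 and 1.12 ± 0.12 in Huh7, a difference of 2.74 ± 0.50 (adjusted p 0.00173). The A549 controls held only 2 to 5 counts per library and the treated A549 libraries 32 to 78. CYP1A1 therefore passed the count filter in A549 only through its treated libraries, and its test is not independent of that rise. TIPARP, an ADP-ribosyltransferase that limits the receptor, rose from 70.9, 66.2 and 64.4 to 203, 266 and 273 CPM in A549 and from 41.2, 47.9 and 42.6 to 63, 76.3 and 74.2 CPM in Huh7 (difference 1.18 ± 0.15, adjusted p 1.12e-04). CYP1B1 rose by 1.91 ± 0.13 and 1.40 ± 0.26, and its difference of 0.51 ± 0.34 was not called (adjusted p 0.338). The aldehyde dehydrogenase ALDH3A1 rose from 1370, 1360 and 1350 to 3580, 3700 and 3840 CPM in A549 and was at 1.79 CPM or less in every Huh7 library, with no called difference by edgeR (adjusted p 0.0583). With DESeq2 the difference of ALDH3A1 was called (1.18, adjusted p 4.63e-04), as it was with all 24 libraries (adjusted p 0.0389) and without Huh7 control replicate 1 (1.57, adjusted p 8.42e-04).

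Drug metabolism and transport genes had 5 higher and 0 lower responses among 21 (23.8% beside 18.6% of all genes). The 5 include CYP1A1, which passed the count filter in A549 only through its treated libraries. They also include CYP8B1, which had 2 to 7 counts in A549 controls and 3 to 12 in treated A549 libraries. In Huh7 CYP8B1 had 14 to 18 counts in the controls and 2 to 4 with the extract. SLCO2B1, an organic anion uptake transporter outside this list, rose in A549 from 4.55, 6.29 and 5.77 to 24, 19.8 and 19.2 CPM. In Huh7 SLCO2B1 fell from 92.7, 83.3 and 84.6 to 70.4, 58.7 and 61.9 CPM, and the difference was 2.33 ± 0.17 (adjusted p 9.77e-07). CYP3A5 went from 2.6, 2.44 and 1.69 to 8.63, 9.66 and 5.65 CPM in A549 and was at 7.01, 7.47 and 4.47 and 8.65, 5.36 and 4.89 CPM in Huh7 (difference 1.78 ± 0.42, adjusted p 0.00856). The conjugate exporter ABCC3 rose in A549 by 0.55, with a log2 fold change of -0.35 in Huh7 (not called).

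Targets of NRF2, the factor of the oxidant response, went both ways. Of 31 tested genes 6 had a higher and 3 a lower response, and 9 rose and 9 fell in A549 and 5 rose and 8 fell in Huh7. HMOX1, heme oxygenase, rose in both lines and further in Huh7, from 209, 224 and 217 to 256, 292 and 277 CPM in A549 and from 31.8, 36.5 and 32.6 to 66.4, 78.9 and 75.3 CPM in Huh7, a difference of -0.79 ± 0.10 (adjusted p 9.86e-05). NQO1, a quinone reductase, rose in A549 (0.16) and fell in Huh7 (-0.28), small changes on levels from 1210 to 2110 CPM whose difference of 0.44 ± 0.042 was called (adjusted p 7.98e-06). The cystine transporter SLC7A11, a target of both NRF2 and ATF4, went from 951, 878 and 887 to 1050, 1030 and 988 CPM in A549 and from 214, 234 and 220 to 135, 142 and 140 CPM in Huh7, a difference of 0.86 ± 0.063 (adjusted p 9.85e-07).

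Genes of the ATF4 response, which supply amino acids under stress, fell more often than they rose in both lines, and of 29 tested 10 had a higher and 3 a lower response in A549. Within A549 6 rose and 13 fell, and within Huh7 2 rose and 15 fell, with medians of -0.27 and -0.34. ATF4 itself fell by 0.50 in A549 and fell by 0.19 in Huh7, the larger fall in A549 (difference -0.31 ± 0.071, adjusted p 0.00775). ASNS, asparagine synthetase, went from 76.4, 65.7 and 71.8 to 46.1, 54.2 and 50.7 CPM in A549 and from 167, 191 and 186 to 108, 94.8 and 96.7 CPM in Huh7, and the difference of 0.36 ± 0.11 was near the threshold (adjusted p 0.0397). The call of ASNS was lost in 12 alternatives, among them thinning, both replicate blocks and 8 omissions of a single library, with adjusted p up to 0.108. The serine enzymes PHGDH, PSAT1 and SHMT2 fell in both lines, with log2 fold changes of -0.58, -0.27 and -0.26 in A549 and -0.75, -0.55 and -0.60 in Huh7, and PHGDH had no called difference. SESN2, a sestrin that p53 and ATF4 both induce, rose from 6.38, 6.29 and 7.56 to 17, 17.1 and 20.8 CPM in A549 and was at 21.7, 23.5 and 22.7 and 23.7, 22.3 and 22.8 CPM in Huh7 (difference 1.39 ± 0.17, adjusted p 6.24e-05). DDIT3, the stress factor CHOP, rose in Huh7 by 0.54 and had a log2 fold change of 0.27 in A549 (not called), with no called difference. For the chaperone HSPA5 the difference was 0.089 (adjusted p 0.159, and 0.0329 with DESeq2). Among 29 genes of ER folding 7 had a higher and 3 a lower response, led by HYOU1 at 0.58 ± 0.14 and CALR at 0.40 ± 0.046.

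Sterol and fatty acid synthesis genes fell in Huh7 and were divided in A549. Of 26 tested cholesterol genes 16 fell and none rose in Huh7, against 8 falls and 4 rises in A549, and 9 had a higher and 2 a lower response in A549. INSIG1, the sterol sensor that retains SREBP in the endoplasmic reticulum, went from 217, 208 and 210 to 136, 134 and 120 CPM in Huh7 and from 61.9, 52.1 and 57.2 to 57.3, 54.8 and 48.6 CPM in A549, where the groups overlapped (difference 0.62 ± 0.10, adjusted p 8.27e-04). FDPS, farnesyl diphosphate synthase, fell in both lines, with log2 fold changes of -0.55 ± 0.085 in A549 and -0.61 ± 0.073 in Huh7 and a difference of 0.059 ± 0.11. Of 19 fatty acid synthesis genes 12 fell in Huh7 and 8 in A549, and 7 had a higher response, the largest in ACSS2, an acetyl-CoA synthetase, with log2 fold changes of 0.71 ± 0.082 in A549 and -0.55 ± 0.074 in Huh7. CPT1A, the gate of mitochondrial fatty acid oxidation, rose in Huh7 from 16.9, 17.3 and 16.8 to 30.8, 34.5 and 28.7 CPM and had a log2 fold change of 0.091 in A549 (not called, difference -0.78 ± 0.097, adjusted p 7.89e-05).

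**Figure D5:**
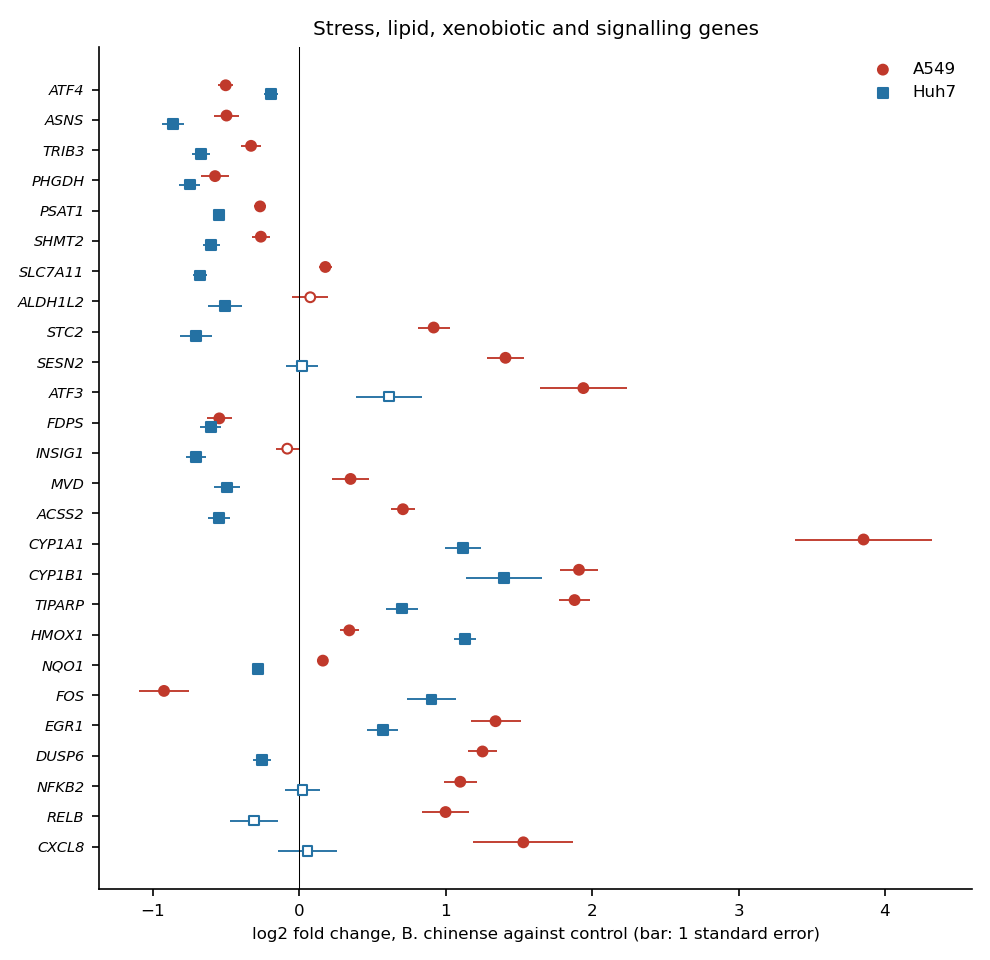
Log2 fold change of B. chinense against control for 26 stress, lipid, xenobiotic and signalling genes, as red circles for A549 and blue squares for Huh7 with bars of 1 standard error, filled where the adjusted p of that line was below 0.05. The lines part furthest in CYP1A1, FOS, STC2 and DUSP6, and the values of FDPS lie close together. CYP1A1 passed the count filter in A549 only through its treated libraries.

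Lysosome and autophagy genes had 13 higher and 1 lower response among 37, with 19 rises and 2 falls in A549 and 1 rise and 2 falls in Huh7. The autophagy receptor SQSTM1 went from 861, 873 and 809 to 1380, 1470 and 1390 CPM in A549 and from 547, 574 and 621 to 569, 566 and 621 CPM in Huh7, where the groups overlapped (difference 0.73 ± 0.074, adjusted p 1.39e-05). WIPI1, which acts in autophagosome formation, had a difference of 1.15 ± 0.21 (adjusted p 0.00168), and the lysosomal enzymes CTSD, HEXA and GAA had differences of 0.36, 0.47 and 0.80. The single lower member was NPC1, at -0.29.

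The remaining genes with the largest differences by the naming rule had few counts or belonged to no list. On the higher side, CPA4, a carboxypeptidase, went from 2.73, 2.94 and 2.98 to 15.8, 10.9 and 10.2 CPM in A549 and was at 3.89, 3.96 and 3.37 and 3.9, 4.09 and 2.14 CPM in Huh7 (difference 2.17 ± 0.36), and MIB2, SDCCAG8 and SORCS2 had differences of 1.88, 1.86 and 1.83. The call of MIB2 was lost with all 24 libraries (adjusted p 0.159) and without Huh7 control replicate 1, A549 B. chinense replicate 3 or A549 control replicate 2 (adjusted p 0.0504 to 0.0572). On the lower side, NEB, the giant muscle protein nebulin, fell from 38.9, 35.8 and 29.2 to 8.4, 8.2 and 10.2 CPM in A549 and was at 69.5, 74.2 and 72.8 and 69.5, 74.6 and 71.2 CPM in Huh7, a difference of -1.94 ± 0.15 (adjusted p 1.40e-06). SAMD11 fell from 24.7, 21.5 and 23.2 to 6.21, 8.31 and 7.18 CPM in A549 and was at 3.43, 4.33 and 3.11 and 5.17, 5.9 and 5.66 CPM in Huh7 (difference -2.26 ± 0.24, adjusted p 2.27e-05), and the kinase gene SGK1 fell from 39.7, 37.5 and 33.7 to 13.5, 18.8 and 4.28 CPM in A549 (difference -1.85 ± 0.34, adjusted p 0.00165). Exons of NEB and SAMD11 overlap RIF1 and NOC2L on the other strand, and those of SDCCAG8 also overlap a measured gene there. ZFAT, at -2.50 ± 0.77, and the read-through gene POC1B-GALNT4, at -2.63 ± 0.58, varied between replicates. Reads of POC1B-GALNT4 cannot be told from those of POC1B and GALNT4, which share its exons. With the spread of all 24 libraries, neither was called (adjusted p 0.0515 and 0.168).

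The largest part of the difference between the lines therefore lay in genes that moved in A549 cells and not detectably in Huh7 cells, which does not show that Huh7 genes were unaffected. The median standard error of a fold change was 0.118 in A549 and 0.112 in Huh7. All groups shared a single estimate of the spread per gene, so these values do not compare the spread within each line. Exons of TNFRSF10B, FOXM1, TYMS, SQSTM1, WIPI1 and CYP1B1 also overlap measured genes on the other strand, whose reads cannot be told apart if strand was not used.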

How the data were processed

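Stranded total RNA libraries were prepared after ribosomal depletion, per the labels. The authors quantified reads with kallisto against Ensembl transcripts (GRCh38.p13) and deposited whole-number estimated counts per protein-coding gene with an average above 5. How transcripts were summed, rounding, strand setting and tool versions are not given in the sources used here.

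From these expected counts, 12 libraries were fitted with edgeR 4.0.16 (TMM, quasi-likelihood F-test, prior count 2, two-sided) in R 4.3.3, with a group for each line and treatment. The interaction and both within-line contrasts were adjusted by Benjamini-Hochberg over all 12696 genes, and the lines share no control. Figures were drawn with matplotlib 3.10.9. Totals were 6803704 to 24345541 counts, and replicates varied by more than sampling alone.

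Named genes were the 8 largest differences in each direction with a mean of at least 50 counts in each line and no overlap of libraries in a line, the 4 genes per orientation with the largest opposite responses, a fixed list, and the 2 leading members of each gene list. Results for some genes are not reported here. Other members were named for their role or to give the range of a list. Members and lists were chosen with earlier results of these data known. Alternatives included DESeq2 1.42.0, limma 3.58.1 voom, other normalizations and filters, more libraries in the fit, thinning, replicate blocks and leaving out each library. A correction for GC content and length, and fits to the 6 libraries of a line alone, were added after seeing the data. Over 9851 genes, the Spearman correlation of the fold change with GC content was 0.142 in A549 and -0.133 in Huh7. For the difference between the lines it was 0.203, and its cause was not tested. Gene positions and overlaps came from the GRCh38 annotation.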

Additional observations from a re-analysis of the deposited data

Results flagged for a closer look

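The response to B. chinense differed between A549 and Huh7, by the interaction test of edgeR over 12696 genes, for 1129 genes that were higher and 1229 that were lower in A549. Named genes are given below with the log2 difference, A549 minus Huh7, and each was singled out because this test called it. Explanations were not tested.

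Of the genes named for the size of their difference, the lower ones were POC1B-GALNT4 at -2.63, ZFAT at -2.50, H3C14 at -2.45, SAMD11 at -2.26, MUC13 at -2.08, NEB at -1.94, SGK1 at -1.85 and FOS at -1.83. The higher ones, apart from genes of the p53 pathway given below, were SLCO2B1 at 2.33, CPA4 at 2.17, MIB2 at 1.88, SDCCAG8 at 1.86 and SORCS2 at 1.83. H3C14 is one of the histone genes transcribed in S phase, and DESeq2 did not call its difference (adjusted p 0.261).

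In the p53 pathway the differences were 2.52 for TP53INP1, 1.98 for CDKN1A, 1.73 for MDM2, 1.54 for BTG2, 1.02 for FAS and 0.996 for GDF15. Among genes of the cell cycle and their regulators they were -1.01 for MYBL2, -0.97 for TOP2A, -0.90 for E2F1, -0.90 for CDK1, -0.88 for MKI67, -0.83 for MCM2, -0.81 for FOXM1, -0.75 for CCNB1, -0.35 for TFDP1 and -0.22 for PCNA.

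Genes called in opposite directions in the lines were LAMTOR4 at 1.65, STC2 at 1.63, DRAM1 at 1.40 and IFI35 at 1.39, which rose in A549, and RND1 at -1.54, SUSD2 at -1.42 and AKAP12 at -1.28, which fell there. HNF4A was at -1.36 with the same opposition.

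Stress, lipid and xenobiotic genes differed by 2.74 in CYP1A1, 1.18 in TIPARP, -0.79 in HMOX1, 0.44 in NQO1, 0.62 in INSIG1, 0.36 in ASNS and 0.34 in TRIB3. Of these, CYP1A1 passed the count filter in A549 only through its treated libraries. TRIB3 was lower with the extract in both lines, with means of 104 and then 82.4 CPM in A549 and 253 and then 158 CPM in Huh7. The call of TRIB3 was lost in 5 alternatives, with adjusted p up to 0.0732. EGR1 was at 0.77 and CXCL8 at 1.47.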

How the results depend on the processing

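The numbers of genes higher and lower in A549 stayed within 1.5 times 1129 and 1229 with DESeq2, voom, other normalizations and filters, thinning, replicate blocks and the GC and length correction, and 78.7% to 97.0% of the 2358 genes were shared with these settings. With all 24 libraries in the fit, 733 genes were lower (61.7% of calls shared), 1338 fell in A549, and 160 rose and 162 fell in Huh7. Calls in Huh7 moved most: 441 rose with DESeq2, 461 rose and 845 fell with voom, 180 rose after thinning and 168 rose with the replicate block within line. An absolute log2 change above 1 left 272 rises and 257 falls in A549, 38 and 20 in Huh7, and 225 higher and 184 lower differences. An unadjusted p gave 1035 rises and 1478 falls in Huh7, and 1914 higher and 2036 lower differences. Leaving out each library in turn gave 1541 to 1819 rises and 1548 to 2046 falls in A549, 128 to 329 rises and 254 to 498 falls in Huh7, and 854 to 1115 higher and 952 to 1109 lower differences. The Huh7 counts were 128 and 254 without Huh7 control replicate 3, 149 and 285 without control replicate 2, 158 rises without control replicate 1, 149 and 278 without B. chinense replicate 2, and 156 and 319 without B. chinense replicate 3. The replicate numbers did not pair the samples (correlations of -0.0545 to 0.0555), and with the replicate block within line 2058 differences were called, with the block over lines 2145. In FDPS, PLK2 and SERTAD1, which were not called, the sign of the difference changed. PLK2 was at -0.016 after thinning and from -0.028 to 0.11 without single libraries, FDPS from -0.015 to 0.14 and SERTAD1 from -0.16 to 0.019. Of single-library omissions, SAMD9 lost its call in 10, FGG in 9, ZFAT and ASNS in 8 and PCNA in 7. The causes were not tested. Counts near the floor of 3 per library, as of CYP1A1 in A549 controls, limit the size of a fold.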

Other observations

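Further gene lists are set beside the 18.6% of all genes with a called difference, 8.89% higher and 9.68% lower. Their shares ran from 20% for tRNA synthetases to 36.8% for cytosolic heat shock genes, apart from the mitochondrial lists given last. Of 32 genes of hypoxia and glycolysis 3 had a higher and 5 a lower response in A549 (25.0% in all). PFKFB3, which makes an activator of glycolysis, fell in A549 (-0.22) and rose in Huh7 (0.35), whereas pyruvate kinase PKM rose in A549 (0.17) and fell in Huh7 (-0.24). Of 25 genes responsive to YAP and TGF-beta 3 were higher and 4 lower (28.0%), and the higher ones included CCN2, a matricellular protein, at 0.93 ± 0.14, and TGFB1 at 0.49 ± 0.080. Of 20 tRNA synthetases 3 were higher and 1 lower, and SARS1, for serine, rose in A549 (0.31) and fell in Huh7 (-0.29).

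Of 23 genes of fatty acid oxidation 3 were higher and 4 lower (30.4%). PDK4, the kinase that restrains pyruvate dehydrogenase, fell in A549 (-0.25) and rose in Huh7 (0.59), a difference of -0.84 ± 0.18 that was not called at equal depth by thinning (adjusted p 0.109). Among 19 cytosolic heat shock genes 2 were higher and 5 lower (36.8%), and the small heat shock protein HSPB8 rose in A549 by 1.42 with 0.055 in Huh7 (difference 1.36 ± 0.20). The shares were below that of all genes for mitochondrial ribosomal proteins, with 3 lower among 73, and for the 13 mitochondrially encoded genes, with 1 higher.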
